A study of Mus musculus with 4 samples.

Results

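The genes described here encode the cell-surface and basement-membrane heparan sulfate proteoglycans: the syndecans Sdc1, Sdc2, Sdc3 and Sdc4, the glypicans Gpc1, Gpc3, Gpc4 and Gpc6, and perlecan, Hspg2. They were chosen by symbol, as every probe set (a group of short oligonucleotides that reports on 1 transcript) that the platform annotation gives to 1 of these 9 genes, which was 24 of 45037 probe sets. The choice was made with earlier results in view, in which Sdc4 was lower at all 3 times after doxycycline withdrawal. The differences from the on-doxycycline array are therefore given as a description, with no test.

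Heparan sulfate proteoglycans are core proteins that carry long sulfated sugar chains. The chains bind growth factors, chemokines and matrix proteins and present them to their receptors. Syndecans cross the membrane and link matrix to the cytoskeleton, glypicans are held by a lipid anchor and modulate WNT, hedgehog and FGF signalling, and perlecan is secreted into basement membranes. In melanoma these molecules are studied for their part in adhesion, migration and the response to growth factors.

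RNA was measured in tumours of iNRAS-475, a mouse melanoma line with doxycycline-inducible NRAS, grown in the dermis of nude mice that drank 2 mg/ml doxycycline. After 6 weeks, at 200 to 500 mm3, tumours were taken on doxycycline, the control, or 24, 48 or 72 h after the drug was withdrawn. Each condition had 1 array, of a tumour piece of about 50 mg, so the differences carry no error from replicates, and the effect of a condition cannot be told apart from that of the animal or the piece. The line, the nude host and growth on doxycycline were common to all 4 tumours, and the labels do not give the promoter that drives the inducible NRAS, its sequence or the age of the mice.

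All differences are in log2(intensity + 32), off minus on, which understates those of dim probe sets, and a gene is called where the difference is at least 1, a 2-fold change on that scale. Of a gene's probe sets the brightest stands for it, and 13522 genes were bright enough to be kept. The central 95% of their differences ran from -0.37 to 0.48 at 24 h, from -0.68 to 0.64 at 48 h and from -0.80 to 0.96 at 72 h, with a median of 0.00 at each time. These ranges serve as a gauge of spread, and they hold any effect of withdrawal as well as noise.

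The 72 h array stood apart in the markers of other cells. Of 8 skeletal muscle markers 7 were called higher at 72 h, where 2.29% of all genes were. The 8 had a summed intensity of 318, 613, 273 and 4417 on doxycycline and at 24, 48 and 72 h. Of these, Myh4 read 11.5, 9.88, 11.5 and 470, and Tnnt3 read 18.6, 18.6, 14.4 and 91.0. Both passed the level filter, 24.9, only through the 72 h array. Of 8 fibroblast markers 7 were called higher at 72 h, against the same 2.29%, and the 8 had sums of 16225, 16914, 34638 and 62070. The sums of the 8 macrophage markers were 4867, 8455, 6893 and 12887, those of the 7 endothelial markers kept 483, 448, 461 and 816, and those of the 4 pericyte markers kept 715, 943, 836 and 1523. The 3 adipocyte markers kept had sums of 356, 169, 464 and 1668. The 5 keratinocyte markers kept stayed between 232 and 254, while the defining keratinocyte genes Krt14, Dsp and Trp63 lay below the level filter. The plasma and lymphoid sums of 5 markers were 387, 459, 755 and 478. The 5 melanocyte markers kept had sums of 4011, 3809, 4969 and 4249, most of it from the regulator Sox10, at 3771, 3613, 4681 and 3844. At 72 h Pmel, called higher, and Mitf were at 1.14 and 0.84, Mc1r and Dct at -0.24 and -0.21. The pigment genes Tyr, Tyrp1 and Mlana lay below the level filter, between 13.5 and 25.2. Mouse Nras, whose brightest probe set read 163, 256, 163 and 163, does not check the transgene, since the sequence of the inducible NRAS is not given. In bulk tissue, fewer cells of a type and less RNA per cell cannot be told apart.

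Sdc4 encodes syndecan-4, which sits in focal adhesions and acts with integrins when cells spread on fibronectin. Its brightest probe set, 1417654_at, read 696 on doxycycline, then 325, 242 and 137 in intensity units at 24, 48 and 72 h. Each later tumour was dimmer than the one before, and the control was the highest of the 4. Relative to the control the intensity was 2.14-fold lower at 24 h, 2.88-fold lower at 48 h and 5.09-fold lower at 72 h. The differences on the log2 scale were -1.03, -1.41 and -2.11. Sdc4 was the gene with the 7th lowest difference of 13522 at 24 h, the 42nd lowest at 48 h and the 31st lowest at 72 h. At 24 h, 0.0666% of all genes were called lower, against 1.04% at 48 h and 1.63% at 72 h. Sdc4 was among the 3 genes (0.0222%) called lower at all 3 times, together with Ucn2, urocortin 2, and Nefm, a neurofilament subunit. This is the pattern for which the genes were chosen, so nothing is read from these ranks.

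The other Sdc4 probe set did not show this course. The probe set 1448793_a_at, annotated to the same gene, had intensities of 149, 178, 142 and 119 on doxycycline and at 24, 48 and 72 h. It was highest at 24 h, and its differences from the control were 0.21, -0.06 and -0.26, within the central 95% of genes at each time. From 24 h to 72 h, a step that leaves the control array out, both Sdc4 probe sets were lower, by differences of -1.08 and -0.48. Of 127 genes that were called lower at 72 h and had a second probe set above the filter, 59 (46.5%) were also called by the second one, and in 4 the second one was equal or higher. The median difference of those second probe sets was -0.95, against -0.26 for Sdc4. At 24 h there were 3 such genes, Sdc4 included, and 0 were called by both. The course of Sdc4 therefore rests on 1 probe set. Averaged over both probe sets Sdc4 was at -0.41, -0.74 and -1.19, and it was then called at 72 h alone.

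At 24 h the brightest Sdc4 probe set was already at -1.03, on an array where the fibroblast and muscle markers had median differences of 0.01 and 0.05, although the muscle sum was 613, against 318 on doxycycline. The fibroblast markers went both ways there, with Lum at -0.86 and Dcn at -0.73. Macrophage markers had a median of 0.50 on that array. Of the 3 adipocyte markers kept 2 were called lower, where 0.0666% of all genes were, and their list had a median of -1.01. That median was -0.49 with probe sets averaged and -0.14 with no level filter. With a pseudocount 4 times as large it was -0.42, and with a pseudocount of 8 it was -1.42. The part of any of these cell types in the 24 h value was not tested. At 72 h the medians of fibroblast, muscle and macrophage markers were 1.73, 3.15 and 1.22, the muscle one falling to 1.77 with probe sets averaged and to 2.06 with a pseudocount 4 times as large. Their part in the lower Sdc4 value of that array was not tested.

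**Figure D1:**
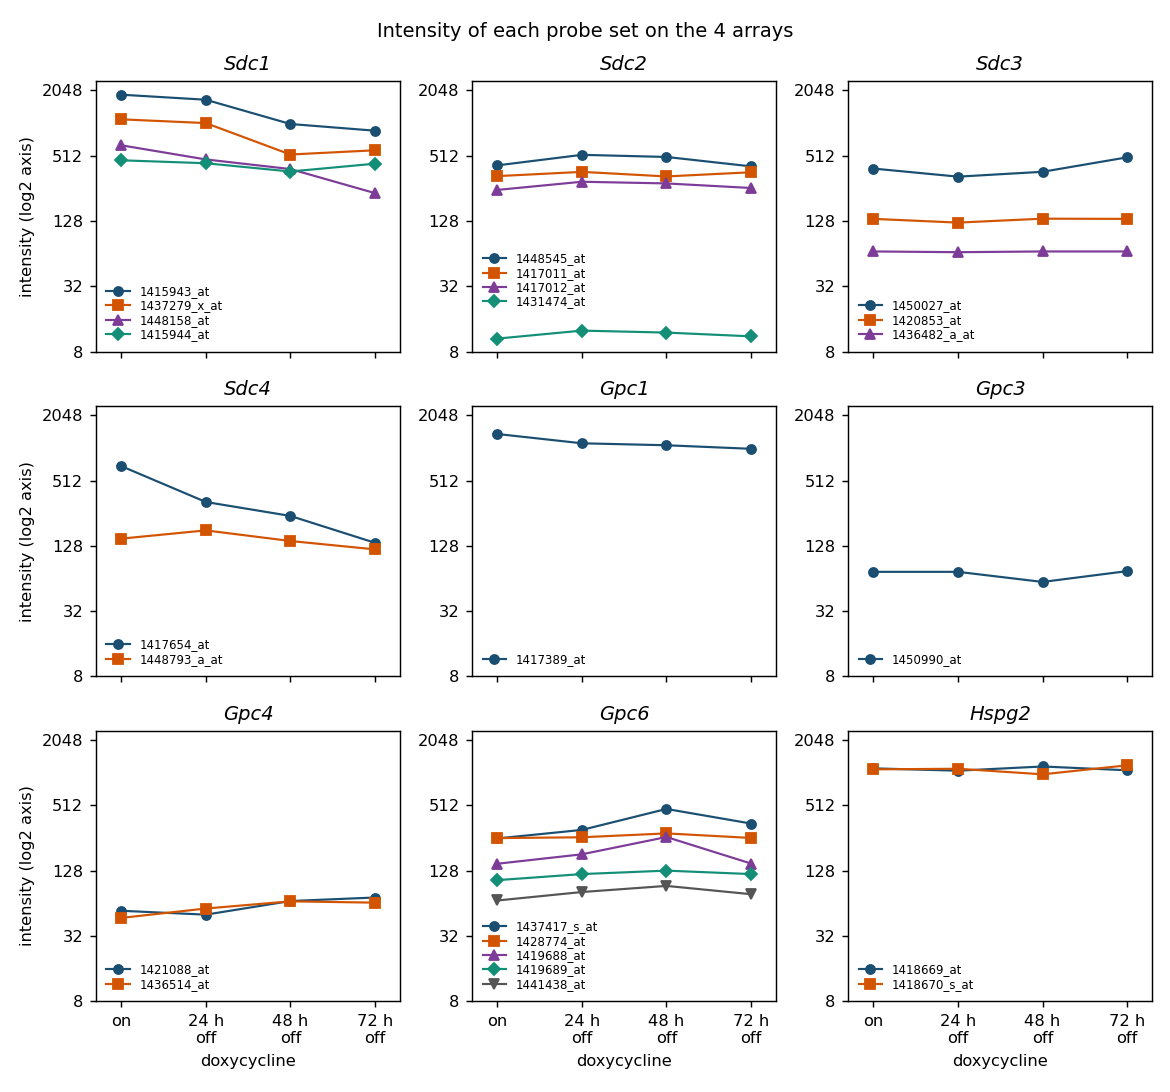
Intensity (log2 axis) of each of the 24 probe sets, in 1 panel per gene, on the on-doxycycline array and at 24, 48 and 72 h off. Each point is 1 array and each line 1 probe set. The brightest Sdc4 probe set descends to 137 at 72 h while the other stays between 119 and 178. At 72 h 3 of the 4 Sdc1 lines lie well below their on-doxycycline level, of which 1437279_x_at rises slightly from 48 to 72 h.

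Sdc1 encodes syndecan-1, an epithelial and plasma cell syndecan that binds growth factors and matrix and can be shed from the cell surface. Its brightest probe set read 1870 on doxycycline and 1681, 1004 and 871 at 24, 48 and 72 h, with differences of -0.15, -0.88 and -1.07. At 24 h 15.2% of all genes had a lower difference than this probe set, and its greatest step was that from 24 to 48 h, at -0.73. All 4 Sdc1 probe sets were below the control at all 3 times, as were 23.9% of all genes by their brightest probe set. A second one, 1437279_x_at, read 1108, 1024, 525 and 574, and another, 1448158_at, read 639, 473, 386 and 231. The last of these was at -0.41 at 24 h, outside the central 95% of genes, and had its greatest step, -0.67, from 48 to 72 h. The dimmest, 1415944_at, read 464, 436, 366 and 432, so that it was near the control level at 72 h. At 72 h the 4 probe sets had differences of -1.07, -0.91, -1.35 and -0.10. The size of the Sdc1 difference thus ran over more than 1 log2 unit between probe sets, whereas its sign did not vary. Averaged over the probe sets the 72 h difference was -0.86, no longer a call. The name ending _x_at marks a probe set that may also bind other transcripts.

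Sdc4 and Sdc1 were the members called lower at 72 h, 2 of 9 genes where 1.63% of all genes were. Sdc4 was known to be lower when the genes were chosen, and the Sdc1 call was lost with probe sets averaged. Nothing is therefore read from this count. The promoter sequences of these 2 genes are shown, from the RefSeq table for the build GRCm38.p6. Each is 300 bases around the transcription start, 5′ to 3′ on the strand of the gene. Capitals mark the GC box GGGCGG, read on both strands. The Sdc4 window is chr2:164443139-164443438 on the minus strand and the Sdc1 window is chr12:8771146-8771445 on the plus strand.
Sdc4: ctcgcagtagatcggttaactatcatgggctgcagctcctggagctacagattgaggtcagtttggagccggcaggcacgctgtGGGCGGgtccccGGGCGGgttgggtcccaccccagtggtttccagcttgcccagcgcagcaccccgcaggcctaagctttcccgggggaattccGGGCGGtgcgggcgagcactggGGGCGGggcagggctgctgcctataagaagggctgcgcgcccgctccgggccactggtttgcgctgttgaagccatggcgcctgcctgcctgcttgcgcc
Sdc1: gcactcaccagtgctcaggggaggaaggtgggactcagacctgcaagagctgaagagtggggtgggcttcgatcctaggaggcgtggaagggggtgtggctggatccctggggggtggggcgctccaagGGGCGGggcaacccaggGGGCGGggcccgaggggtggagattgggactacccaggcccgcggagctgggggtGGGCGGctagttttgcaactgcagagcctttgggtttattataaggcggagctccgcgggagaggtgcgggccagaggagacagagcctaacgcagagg
The Sdc4 window holds 4 GC boxes and the Sdc1 window 3. Of 32851 promoter windows of this length 35.7% hold at least 1. The other motifs searched were the AP-1 site TGANTCA, the E-box CACGTG, the ETS site CCGGAAG and the TATA box TATAAA, on both strands. They were in 7.81%, 7.15%, 8.86% and 13.6% of all windows and in neither of these 2. The motifs searched do not overlap each other in these windows, and no match says only that these letters are not in this window. The table held 6 of the 9 genes, the others with a window being Sdc3, Gpc3, Gpc4 and Hspg2, and these 4 windows held 3, 4, 1 and 5 GC boxes and none of the other motifs.

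Sdc2 and Sdc3 stayed near the control. Sdc2 encodes syndecan-2, a syndecan of mesenchymal and neural cells, and its brightest probe set read 417, 522, 499 and 408 on doxycycline and at 24, 48 and 72 h. Its differences were 0.30, 0.24 and -0.03, and the next brightest sets, at 332, 363, 330 and 360 and at 248, 294, 284 and 258, differed from the control by at most 0.22. The remaining Sdc2 probe set, between 10.5 and 12.5, was the only probe set of the 24 below the level filter. Sdc3 encodes syndecan-3, best known from the nervous system, and its brightest probe set read 390, 328, 364 and 494. It was lowest at 24 h and highest at 72 h, with differences of -0.23, -0.09 and 0.32. The other Sdc3 probe sets differed by at most 0.09 in size, and 1436482_a_at had exactly the same value, 67.0, on the on-doxycycline, 48 h and 72 h arrays. Such exact ties were found in 4 of the 24 probe sets, against 48.0% of all probe sets, and their origin is unknown.

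**Figure D2:**
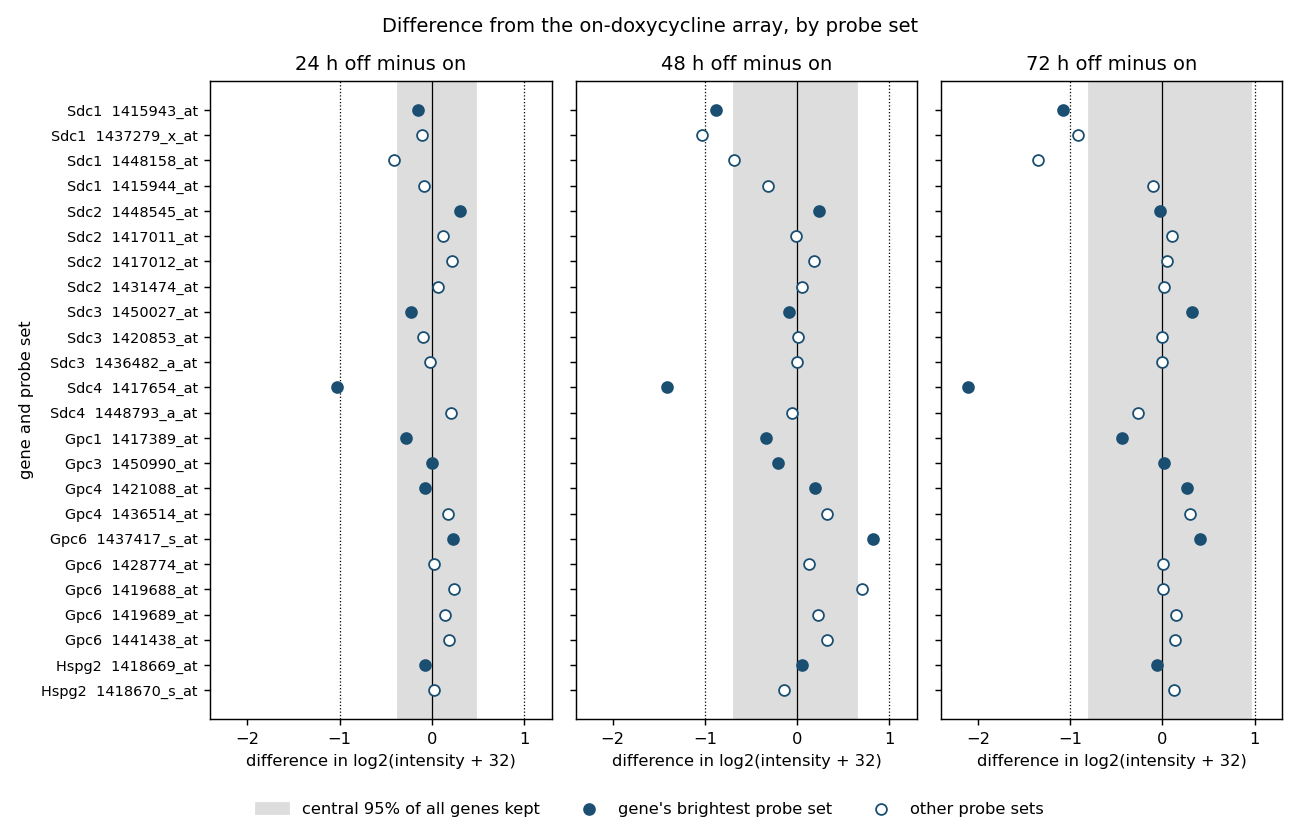
Difference from the on-doxycycline array in log2(intensity + 32) for each of the 24 probe sets, with 1 panel per time off doxycycline. Filled points are each gene's brightest probe set, open points the others, the grey band the central 95% of the 13522 genes kept and the dotted lines a difference of 1. At 72 h 20 of the 24 probe sets lie inside the band, and the 4 outside it belong to Sdc4 and Sdc1.

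Gpc6 was the member furthest above the control, at 48 h. It encodes glypican-6, and its brightest probe set, 1437417_s_at, read 254 on doxycycline and 305, 475 and 349 at 24, 48 and 72 h. The differences were 0.23, 0.83 and 0.41, below the size at which a gene was called. At 48 h it had the 171st highest difference of 13522 genes. All 5 Gpc6 probe sets were above the control at all 3 times, as were 27.3% of all genes by their brightest, and all 5 were highest at 48 h. The sizes varied, however, with 48 h differences of 0.83, 0.13, 0.70, 0.23 and 0.32 in order of brightness. The second brightest set, 1428774_at, read 256, 261, 283 and 257, all but level, whereas 1419688_at read 149, 181, 262 and 149. The ending _s_at marks a probe set that may bind transcripts of more than 1 gene. Fibroblast markers had a median difference of 0.91 at 48 h and 1.73 at 72 h, so their highest array was not that of Gpc6, and their part in its values was not tested.

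Gpc1 was lower at each later time, by little. It encodes glypican-1, a glypican that enhances FGF signalling and is raised in several cancers. Its 1 probe set read 1377 on doxycycline and 1130, 1084 and 1005 at 24, 48 and 72 h. The order of the arrays was that of the brightest Sdc4 probe set, but the differences of -0.28, -0.34 and -0.44 lay inside the central 95% of all genes each time. Of all genes, 5.40%, 8.76% and 6.54% had a lower difference at 24, 48 and 72 h.

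Gpc3 and Gpc4, neighbouring genes on the X chromosome, were dim. Gpc3 encodes glypican-3, which restrains hedgehog signalling and marks liver cancer, and its 1 probe set read 73.7, 73.7, 59.5 and 74.8, lowest at 48 h. Gpc4 encodes glypican-4, which supports WNT and FGF signals. Its probe sets read 54.7, 50.4, 67.3 and 72.5, and 47.0, 57.4, 66.8 and 65.0. Both Gpc4 probe sets were higher at 48 and 72 h than on doxycycline, by 0.20 and 0.32 at 48 h and by 0.27 and 0.30 at 72 h, within the spread of all genes. The glypicans Gpc2 and Gpc5 were below the level filter on the platform, at 13.5 to 17.5 and at 11.8 to 12.6.

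Hspg2, perlecan, was level across the tumours. Its probe sets read 1126, 1071, 1171 and 1081, and 1102, 1117, 992 and 1201. They differed in sign from each other at every time, and the greatest in size was -0.15, at 48 h. Endothelial and fibroblast cells make perlecan, and the summed markers of both were highest on the 72 h array. The fibroblast marker Pdgfra went the other way, at -0.57 at 72 h. The basement membrane collagens Col4a1 and Col4a2 read 3624 and 3350 at 72 h, against 1261 and 980 on doxycycline, with differences of 1.50 and 1.74. The Hspg2 probe sets were at -0.06 and 0.12 on that array. The part of endothelial and fibroblast cells in any of these values was not tested.

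Over the 9 genes, by their brightest probe sets, 2 were above the control, 6 below and 1 equal at 24 h, 4 above and 5 below at 48 h, and 4 above and 5 below at 72 h. Of all genes, 43%, 45.5% and 43.7% were below the control at these times and 49%, 45.3% and 46.8% above it. The median differences of the 9 were -0.07, -0.09 and -0.03. The 4 syndecans' 13 probe sets ran from -2.11 to 0.32 at 72 h, and the 4 glypicans' 9 probe sets from -0.44 to 0.41. As a family, then, these proteoglycans had no common direction. None of the 9 was called higher at any time, where 0.266%, 0.754% and 2.29% of all genes were at 24, 48 and 72 h and 0.0592% at all 3.

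**Figure D3:**
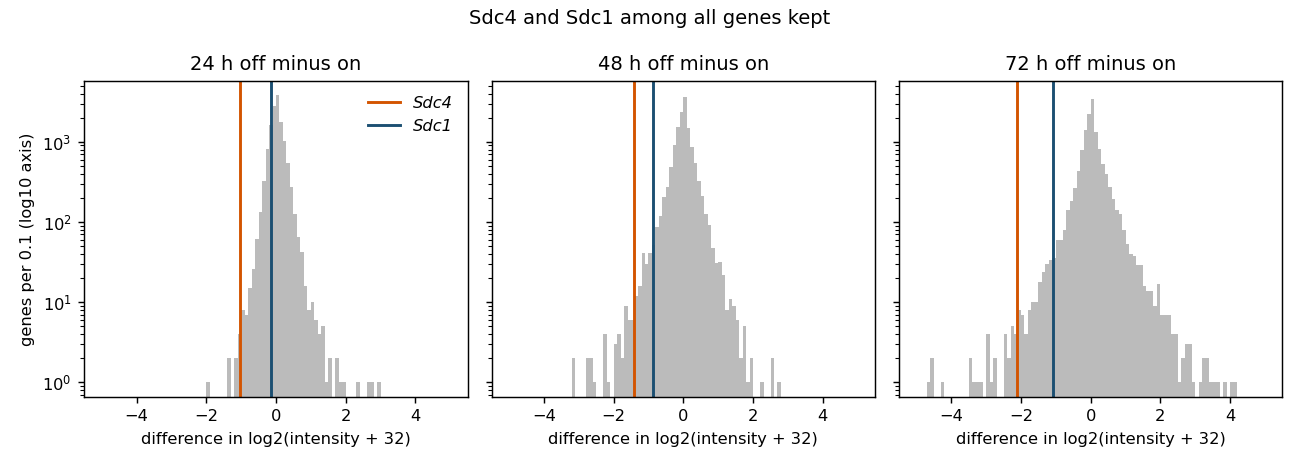
Number of genes (log10 axis) by their difference from the on-doxycycline array in log2(intensity + 32), for the 13522 genes kept, with 1 panel per time off doxycycline. Vertical lines mark the brightest probe sets of Sdc4 (-1.03, -1.41 and -2.11) and Sdc1 (-0.15, -0.88 and -1.07).

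The 5 genes whose 3 differences were nearest to those of Sdc4, by Euclidean distance over the 4 arrays, were Mmd, Plaur, Ucn2, Pkp1 and Socs2, at distances of 0.53 to 0.67. Mmd, a membrane protein found in monocytes and macrophages, read 750, 473, 232 and 194. Plaur, the urokinase receptor, read 403, 266, 103 and 84.6, and Pkp1, the desmosomal plakophilin-1, read 608, 333, 283 and 169. Socs2, an inhibitor of cytokine signalling, read 515, 387, 184 and 80.7. Since the 5 genes were chosen for nearness to the Sdc4 differences, a course like that of Sdc4 follows from the choice. Each was highest on doxycycline and lowest at 72 h, and of these 5 genes only Ucn2, at -1.39, was called at 24 h as Sdc4 was.

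The enzymes that build the heparan sulfate chains had medians near the control. Of the 26 synthesis genes kept, 0 were called at any time, and their median differences were 0.09, 0.03 and 0.02 at 24, 48 and 72 h. Of all genes 2.29% were called higher and 1.63% lower at 72 h, and smaller shares earlier. A count of 0 among 26 therefore says little. The chain polymerases Ext1 and Ext2 read 369 and 399 at 72 h, against 368 and 385 on doxycycline. Hs6st2, a 6-O-sulfotransferase, was higher by 0.81 at 24 h, from a dim level, with intensities of 23.4, 65.0, 39.0 and 41.1, and its relative Hs6st1 by 0.90, at 323, 631, 310 and 273. B3gat3, which completes the linker between chain and core protein, was lower by -0.33, -0.50 and -0.33. Another synthesis gene, Glce, read 289, 374, 252 and 167, with a difference of -0.69 at 72 h. Genes of chain editing and breakdown had medians of 0.00, 0.20 and 0.42, with 7 of 9 above the control at 72 h, where 46.8% of all genes were. With probe sets averaged the last 2 medians were 0.11 and 0.20. The only one of these called was Sulf1, an extracellular 6-O-sulfatase, at 237, 296, 286 and 823, whose other probe set had a difference of 0.94 at 72 h. The heparanase Hpse was above the control by 0.62, 0.52 and 0.90, whereas Sulf2 was at -0.05, -0.24 and -0.14.

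Among 13 genes linked to shedding and release, which include the inhibitor Timp3, 2 were called higher and 1 lower at 72 h, with a median of 0.04, where 2.29% and 1.63% of all genes were. Mmp14, a membrane metalloprotease that can cleave syndecan-1, read 1968, 2189, 3110 and 4596, and the secreted Adamts1 read 1408, 1317, 1350 and 308. Other Mmp14 probe sets were at 0.69 and 0.86 at 72 h, below the size of a call. The syndecan sheddases Adam10 and Adam17 were at -0.61 and 0.28 at 72 h. Of the 15 partners of the syndecan tail 1 was called lower at 48 h, where 1.04% of all genes were. This was Arf6, a small GTPase of membrane recycling, at -1.01 at 48 h and -0.96 at 72 h. Other Arf6 probe sets lay between -0.88 and -0.41 at 48 h and between -1.15 and -0.37 at 72 h. Prkca, the kinase that syndecan-4 activates, was at 0.96 at both 48 and 72 h, although its other probe sets were between 0.00 and 0.01 at 72 h. Syntenin, Sdcbp, the PDZ protein that binds all syndecan tails, was at 0.09, -0.11 and -0.04.

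Genes of the integrins that work with syndecans, listed with their matrix ligands, lay mostly below the control at 48 and 72 h. Of these 11 genes 8 were below it at 48 h and 7 at 72 h, with medians of -0.25 and -0.51, and 2 were called lower at both times, where 1.04% and 1.63% of all genes were. The size of these medians depended on the probe sets: averaged over each gene's probe sets they were -0.12 and -0.18, and raising the pseudocount to 4 times 32 gave -0.32 at 72 h. These were Itga5, the fibronectin receptor subunit that cooperates with syndecan-4, and Itga3. Itga5 read 524, 292, 222 and 165, with differences of -0.78, -1.13 and -1.50 and another probe set at -1.10 at 72 h. Itga3 read 511, 495, 220 and 172, with other probe sets between -1.32 and -0.50 at 72 h. Itgb1, their beta subunit, was at -0.69 at 72 h. Fn1, fibronectin, and Tnc, tenascin C, lay on the other side of the control, at 0.47 and 1.01 at 72 h, although another Tnc probe set was at 0.21.

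Ligands that bind heparan sulfate went both ways. At 72 h 5 of 25 were called higher and 4 lower, with a median of 0.00, against 2.29% and 1.63% of all genes. Hbegf, an EGF receptor ligand, read 1696, 1467, 487 and 282, and Pdgfa, a platelet-derived growth factor, read 471, 339, 183 and 206. Tgfb1 had a difference of -1.41 at 72 h, but its other probe set was at 0.13. The neurite factors Ptn, pleiotrophin, and Mdk, midkine, both ligands of syndecans, were at 3.35 and 1.51 at 72 h, and other Ptn probe sets lay between 0.10 and 1.97. Lpl, a lipase of fat and muscle that binds heparan sulfate, was at 2.30 on the same array. There 7 of 8 muscle markers and 2 of the 3 adipocyte markers kept were called higher, and the third, Retn, was at -0.07. The adipocyte median, 2.00, was 0.16 with no level filter. The part of these cells in the Lpl value was not tested. Beside the same shares of all genes, 1 of 20 receptors for such ligands was called higher and 1 lower at 72 h: the chemokine receptor Cxcr4, at 39.2, 53.0, 110 and 118, and the hedgehog receptor Ptch1, at 253, 264, 175 and 83.0, with other Ptch1 probe sets between -0.58 and 0.00.

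Some other proteoglycans differed more than most of the 9 genes did. Cd44, a hyaluronan receptor with isoforms that carry heparan sulfate, read 1007, 950, 661 and 352, with other probe sets between -1.18 and -0.996 at 72 h. Nrp1, a co-receptor that can carry such chains, read 257, 311, 516 and 842, and Tgfbr3, betaglycan, was at 1.21 at 72 h with another probe set at 0.27. Cspg4, a chondroitin sulfate proteoglycan known as a melanoma antigen, read 603, 794, 381 and 133. The fibroblast proteoglycan Dcn read 394, 226, 726 and 3108, with another probe set at 0.17 at 72 h. Of 7 other heparan sulfate proteoglycans kept, 2 were called higher and 1 lower at 72 h, and of 12 chondroitin sulfate ones also 2 and 1, against 2.29% and 1.63% of all genes. Of 15 basement membrane genes 3 were called higher at 72 h, Nid1, Col4a1 and Col4a2, and 0 lower, with a median of 0.05.

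**Figure D4:**
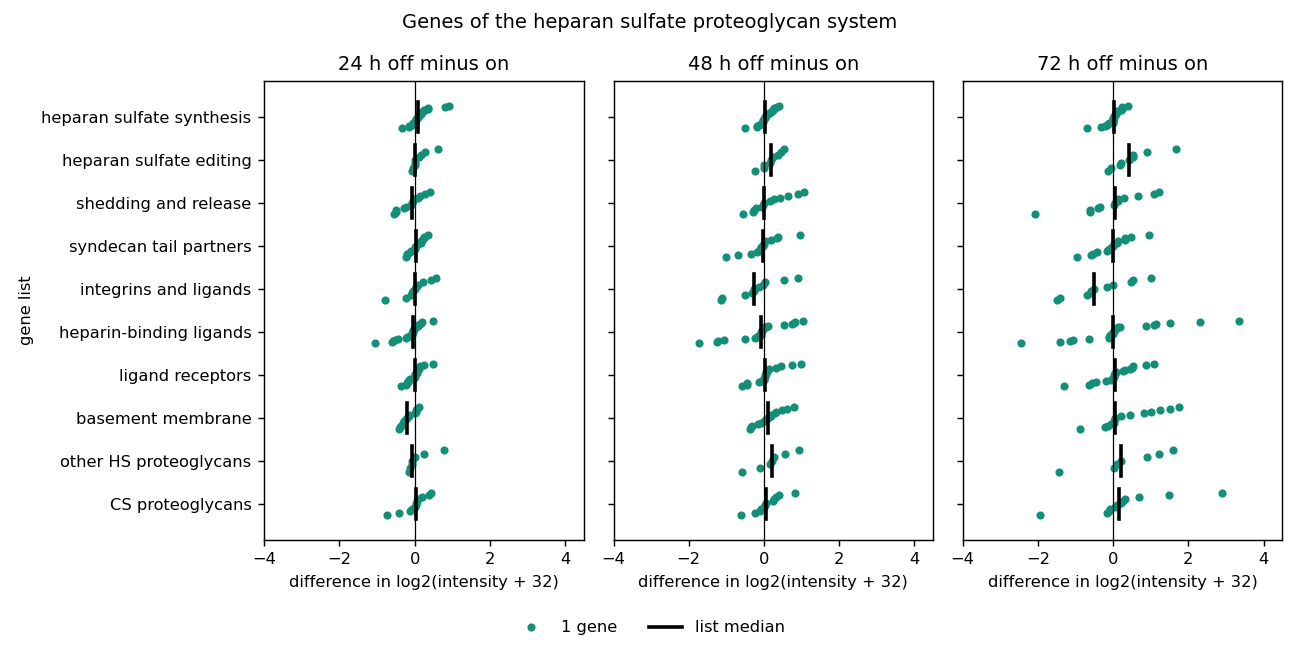
Difference from the on-doxycycline array in log2(intensity + 32) for the genes of 10 lists around heparan sulfate proteoglycans, with 1 panel per time off doxycycline. Each point is 1 gene and the black bar is the list's median. The medians of the synthesis genes stay close to 0, at 0.09, 0.03 and 0.02. Of these genes Hs6st1 and Hs6st2 are at 0.90 and 0.81 at 24 h, and Glce is at -0.69 at 72 h. The medians of integrins and their ligands are 0.01, -0.25 and -0.51, the last at -0.18 when probe sets are averaged.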

How the data were processed

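Per the labels' protocols, RNA was extracted with Trizol from frozen tumour pieces and 10 ug of total RNA was labelled with biotin for an Affymetrix mouse array. The deposited table holds 1 linear intensity per probe set and array. MAS5 and RMA are both named, per the submitters' processing notes, but neither their role nor the scaling between arrays is stated in the sources used here. Median intensity was 33.4 on doxycycline and 33.3, 34.0 and 33.8 at 24, 48 and 72 h.

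Of 45037 probe sets, 34945 had 1 symbol in the platform annotation, 932 several and 9160 were unlisted. Only the first kind was used. A gene was kept where its brightest probe set, by the mean over 4 arrays, reached the 40th percentile of probe sets, 24.9. No normalization was added, the pseudocount was 32, and calls used a difference of at least 1. With 1 array per group, and genes chosen on these contrasts, no test was run. The steps were run on simulated arrays with seeded differences and no noise, which checks the arithmetic alone. Python 3.11.15, pandas 2.3.3, NumPy 2.4.6 and matplotlib 3.10.9 were used.

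The members and lists were chosen with earlier results of these data known. Named besides the 9 genes were, by rule, up to 4 genes per list with the greatest mean difference over the off arrays, and the 5 genes nearest to Sdc4. The genes Ext1, Ext2, Hs6st1, Glce, Sulf2, Adam17, Sdcbp, Timp3, Itgb1, Fn1, Mdk and Lpl were named outside that rule, after values had been seen. So were Nefm, Sox10, Nras, Gpc2, Gpc5, Pdgfra, Tnnt3 and markers below the filter. Promoter windows came from RefSeq.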

Additional observations from a re-analysis of the deposited data

How the results depend on the processing

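No paired analysis was possible because each condition had 1 array. Every Sdc4 difference of the brightest probe set kept its sign under the alternatives tried, but most of these could not have changed it. Those alternatives were pseudocounts of 8 and of 4 times 32, quantile normalization, median centring, the mean over probe sets, the omission of _x_at and _s_at probe sets and, added after seeing the data, no pseudocount and the mean of the on-doxycycline and 24 h arrays as the reference. A pseudocount cannot change the sign of a difference, and the omission of probe sets left this one in use. The 48 and 72 h intensities also lay below those of both reference arrays. Averaged over its probe sets, Sdc4 was at -0.41, -0.74 and -1.19 at 24, 48 and 72 h. With the larger pseudocount it was at -0.86, -1.16 and -1.64. The call at 24 h was thus lost both times, and that at 48 h in the averaged values. With no pseudocount it was at -2.35 at 72 h. Against the mean of the on-doxycycline and 24 h arrays it was at -0.90, no longer called, and -1.60 at 48 and 72 h. The other Sdc4 probe set, also a later choice, gave 0.21, reversed, at 24 h, and -0.059 and -0.26 later.

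Of 184 values of the other 8 genes under these alternatives 175 kept their sign and 2 crossed the size of 1. The values with another pseudocount could not change sign, so the count of signs kept is partly fixed in advance. Without _s_at probe sets Gpc6 was at 0.02, 0.13 and 0.00, and Sdc1 at 72 h was at -0.86 averaged over probe sets and at -0.999 against the mean of the on-doxycycline and 24 h arrays, no longer called in either.

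The background counts moved with several choices. At 4 times 32, genes called higher at 24, 48 and 72 h and at all 3 times numbered 12, 39, 168 and 2, and lower 1, 58, 118 and 0. In the main setting they were 36, 102, 309 and 8, and 9, 141, 220 and 3. With no pseudocount 68, 186, 501 and 18 were higher, and 29 and 212 lower at 24 and 48 h. With a pseudocount of 8, 154 were higher at 48 h, 13 higher at all times and 18 lower at 24 h. With the mean over probe sets, 54, 193 and 3 were higher at 48 h, 72 h and all times, and 5, 81 and 139 lower at 24, 48 and 72 h. Without the 24 h array 73 genes were higher and 117 lower at both other times, and without the 48 h array 19 were higher, since fewer arrays had to pass. Of 513 list medians under the alternatives 29 moved, most of them of marker lists. For these medians, moved means by at least 0.15, 0.18 and 0.19 at 24, 48 and 72 h. Those are standard deviations of all genes' differences, estimated from the median absolute deviation. With the mean over probe sets the medians at 72 h were -0.18 for integrins and ligands, 0.20 for chain editing, 1.77 for muscle and 1.31 for adipocyte markers. With no level filter, which adds dim genes, the adipocyte median was 0.16, against 2.00. Changing the level filter moved no count by over 1.5 times. The probe sets' disagreement and the single array per condition limit every size given.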
